A study of Mus musculus with 4 samples.

Results

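The mitochondrial DNA of the mouse carries 37 genes, and all 37 rows of the gene expression table whose name begins with mt- were taken, out of 53465 rows in all. They comprise 13 protein-coding genes, 2 rRNA genes and 22 tRNA genes, and every row on the mitochondrial chromosome was among them. RNA was sequenced from whole testes of male mice at postnatal day 18, on a mixed C57BL/6 and ICR background. The Sympk cKO group (2 libraries) carried a conditional knockout of Sympk made with Stra8-Cre. The Stra8 promoter drives Cre in premeiotic germ cells, so the somatic cells of these testes were not its target. The wild-type group (2 libraries) is labelled wild type and called control in the protocol, and whether these mice carried the floxed allele or the Cre is not stated. The labels do not say how many animals stand behind a library, so any p-value here reflects the spread among 4 libraries, part of which may be technical. The series set out to compare transcript levels between these testes in a study of Sympk and meiosis.

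Mitochondrial DNA is transcribed from both strands into long precursors. The tRNAs punctuate these precursors, and cutting them out releases the mRNAs and rRNAs. The mRNAs encode core subunits of respiratory complexes I, III and IV and of ATP synthase, while every other subunit and all the proteins of mitochondrial transcription, RNA processing and translation are encoded in the nucleus. Symplekin, the product of Sympk, is a scaffold of the machinery that cleaves and polyadenylates nuclear mRNAs. Where a mitochondrial mRNA has a poly(A) tail, it is added inside the organelle by a separate poly(A) polymerase, Mtpap.

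That tail completes the stop codon of some mitochondrial mRNAs, which is why their last 12 bases are shown. In the annotated sequences (GENCODE M21 transcripts on GRCm38, 5′ to 3′), 10 of the 13 mRNAs ended in a whole stop codon and 3 ended 1 base into a codon. The 3 incomplete ones had a median log2 fold change of 0.80 (0.63 to 0.99) and the 10 complete ones of 0.94 (0.71 to 1.17), ranges that overlap. Capitals mark that stop codon or that last base, in the 3 incomplete mRNAs and in 2 complete ones for contrast.
mt-Co3: gatgaggatctT
mt-Nd4: gcctgacaataT
mt-Cytb: aattatatccaT
mt-Co1: aaagtaaaaTAA
mt-Nd6: actcgagatTAA
Mitochondrial genes also lie end to end, and some share bases, which bears on how a read is assigned. The largest overlap is the 43 bases shared by the ATP synthase genes mt-Atp8 and mt-Atp6 (MT:7927-7969, plus strand, shown within MT:7910-7969). The next on one strand is the 7 bases shared by the complex I genes mt-Nd4l and mt-Nd4 (MT:10167-10173, plus strand, shown within MT:10144-10173). Capitals mark the shared bases.
mt-Atp8 into mt-Atp6: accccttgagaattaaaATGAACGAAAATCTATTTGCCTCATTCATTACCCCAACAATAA
mt-Nd4l into mt-Nd4: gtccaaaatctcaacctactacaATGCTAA

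The libraries held 32730868 to 41584389 counts. Sympk itself stood at 171.5 and 173.2 CPM (library-scaled counts, with TMM factors) in the cKO libraries, against 225.2 and 192.0 CPM in the wild-type libraries. The log2 fold change was -0.28, which missed the threshold of 0.05 (adjusted p = 0.132; quasi-likelihood test in edgeR, Benjamini-Hochberg), and a count over the whole gene does not separate the deleted exons. Marker RNA of several cell types differed between the groups, where 29.2% of all genes tested were higher in cKO and 34.3% lower. All 16 listed spermatocyte markers were lower, with summed levels of 225 and 312 CPM in cKO against 8454 and 8294 CPM in wild type. Of 24 Sertoli cell markers, 22 were higher and 0 lower, with summed levels of 9452 and 8475 CPM in cKO against 3855 and 4210 CPM in wild type. Skeletal muscle markers stood apart by library, at 2794 and 1701 CPM in cKO and 54.8 and 823 CPM in wild type, with none of the 10 at 0 in every library. Of 7 erythroid markers 5 were higher and 0 lower, summing to 292 and 276 CPM in cKO against 93.4 and 137 CPM in wild type. Of 5 adipocyte markers tested 3 were higher and 0 lower, summing to 70.3 and 37.4 CPM against 7.98 and 24.1 CPM. Of 5 epididymis and duct markers tested, 3 were lower and 0 higher. In bulk testis, fewer cells of a type and less RNA per cell cannot be told apart.

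Mitochondrial RNA made up a larger share of the cKO libraries. The 37 genes took 10.2% and 8.81% of all counts in the cKO libraries, against 4.93% and 4.01% in the wild-type libraries. Both cKO libraries lay above both wild-type libraries. The mean share was 9.50% ± 0.974 in cKO and 4.47% ± 0.653 in wild type (SD, n = 2 each), a ratio of 2.12 with single pairs of libraries from 1.79 to 2.54. An exact permutation test of 2 libraries against 2 cannot go below p = 0.333, which is the two-sided value here. Within the cKO group the library with more muscle marker RNA had the higher mitochondrial share, and within wild type the library with more muscle marker RNA had the lower one. Many markers of other cells of the testis were also higher in cKO on the TMM scale, where 29.2% of all genes tested were higher and 34.3% lower. Higher were 9 of 9 endothelial markers (median log2 fold change 1.07), 9 of 9 macrophage (1.21), 5 of 9 Leydig (0.88) and 5 of 8 peritubular myoid markers (0.89). So were 8 of 14 spermatogonial markers (0.88) and 10 of 13 immediate early and stress genes (1.56). Lower were 1 Leydig marker, 2 spermatogonial markers and 1 immediate early or stress gene. The mitochondrial mRNAs had a median of 0.85 on that scale. Scaled to the Sertoli markers, the medians were -0.08, 0.07, -0.27, -0.28, -0.24 and 0.41 for these lists in the same order, and -0.32 for the mitochondrial mRNAs. The part of any of these markers in the difference was not tested.

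The 3 kinds of gene contributed very unequally. Protein-coding genes took 10.1% and 8.74% of counts in cKO against 4.88% and 3.96% in wild type, which was 99.3% and 99.2% of the mitochondrial counts in cKO and 98.8% in both wild-type libraries. The rRNA genes took 0.0678% and 0.0712% of counts in cKO against 0.0558% and 0.0476% in wild type, a ratio of 1.34. The tRNA genes took 0.00340% and 0.00352% in cKO against 0.00187% and 0.00160% in wild type, a ratio of 1.99. In each class the cKO libraries lay above the wild-type libraries, and the rRNA ratio was smaller than those of the other two.

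**Figure D1:**
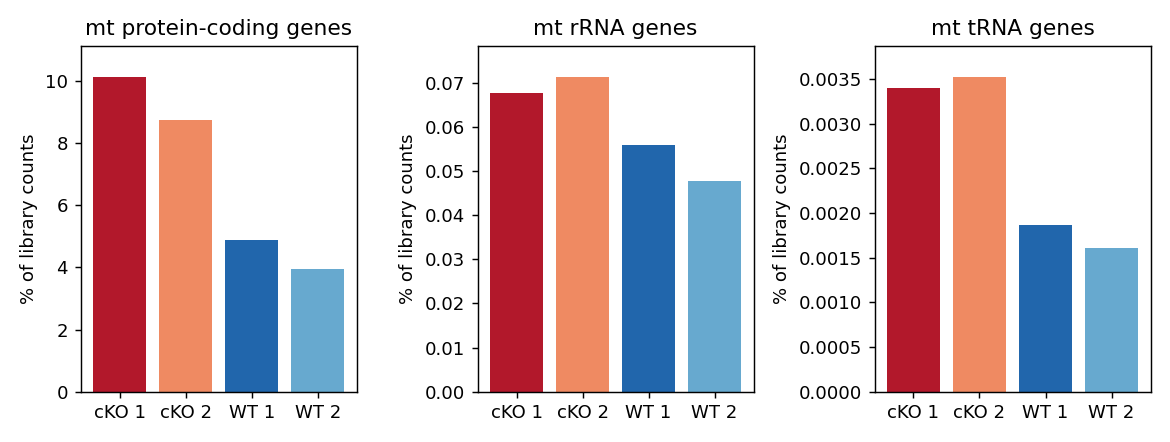
Share of all library counts (%, linear axes from 0) taken by mitochondrial protein-coding, rRNA and tRNA genes, 1 bar per library, cKO left of wild type (WT). Each panel has its own scale: the protein-coding genes reach 10.1%, the rRNA genes 0.0712% and the tRNA genes 0.00352%, and both cKO bars are above both wild-type bars in each panel.

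Of the 37 genes, 22 passed the filter on low counts: all 13 protein-coding genes, both rRNA genes and 7 tRNA genes. On the TMM scale 16 of the 22 were higher in cKO and 0 were lower at an adjusted p under 0.05, where 29.2% of all genes tested were higher and 34.3% lower, 63.4% in all. No gene of the 22 was lower at an unadjusted level either, since every fitted change was above 0, and DESeq2 likewise called 0 lower. The median log2 fold change was 0.81, against -0.02 over all genes tested. The direction depends on the scale. With each library scaled to the summed counts of the 24 Sertoli markers, 0 of the 22 were higher and 2 were lower (both rRNA genes). The median was -0.35, against -1.17 over all genes, of which 2.12% were higher and 60.5% lower, 62.6% in all. Clu, 1 of these markers, was the nuclear gene with the most counts in both cKO libraries (172827 and 125839), and its part in this scale was not tested. Without cKO replicate 1, the library with the largest mitochondrial share, fewer mitochondrial genes were called higher, as was so over all genes tested. The median log2 fold change of the 24 mitochondrial genes tested there was 0.77, against -0.05 over all genes.

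All 13 mRNAs rose on the TMM scale, 1.55-fold to 2.25-fold, with log2 fold changes from 0.63 to 1.17 and adjusted p from 0.00217 to 0.0395. The cKO and wild-type values did not overlap for any of the 13, as was so for 40.9% of all genes tested in this direction. On the Sertoli scale 12 of the 13 changes were below 0 and mt-Nd5 was at 0.00088, and 0 of the 13 passed the test. Without cKO replicate 1, 6 of the 13 calls held (mt-Nd1, mt-Nd2, mt-Nd3, mt-Nd5, mt-Nd6 and mt-Atp8).

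Complex I, which takes electrons from NADH, has 7 mitochondrial subunits. Among them were the largest changes of the 13 mRNAs. mt-Nd5 (MT:11742-13565) stood at 9706 and 8385 CPM in cKO, against 4876 and 3158 CPM in wild type. The fitted log2 fold change was 1.17 (SE 0.270, adjusted p = 0.0100). mt-Nd2 stood at 4481 and 3485 CPM in cKO, against 2116 and 1449.8 CPM in wild type, a log2 fold change of 1.16 (SE 0.254). In both genes the lower cKO library was over 1.5-fold above the higher wild-type library. mt-Nd6 (MT:13552-14070) is the sole mRNA gene on the minus strand of the mitochondrial DNA. It stood at 423.3 and 341.8 CPM in cKO, against 192.5 and 160.4 CPM in wild type. The fitted log2 fold change of 1.12 (SE 0.175) had the smallest adjusted p of the members, 0.00217. Since no strand setting is given, sense reads of mt-Nd6 and antisense reads over it cannot be told apart.

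mt-Nd4l was at 1940.3 and 1507 CPM in cKO, against 1062 and 577.2 CPM in wild type, and its neighbour mt-Nd4 was at 8706 and 6895 CPM against 4804 and 3072 CPM. Wild-type replicate 2 was the lowest library for both. Their log2 fold changes were 1.07 (SE 0.312) and 0.99 (SE 0.281). mt-Nd1 was at 9061 and 7049 CPM in cKO, against 4484 and 3334 CPM in wild type (log2 fold change 1.04, SE 0.248). mt-Nd3 was at 195.4 and 171.0 CPM in cKO, against 106.7 and 102.0 CPM in wild type, a log2 fold change of 0.81 with the smallest SE of the members, 0.136.

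Complex III, which passes electrons to cytochrome c, has 1 mitochondrial subunit, cytochrome b. mt-Cytb stood at 9545 and 7937 CPM in cKO, against 5733 and 4336 CPM in wild type. The fitted log2 fold change was 0.80 (SE 0.237, adjusted p = 0.0259).

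Complex IV, cytochrome c oxidase, has its 3 core subunits encoded here. mt-Co1 (MT:5328-6872), the catalytic subunit, was the gene with the most counts of all genes in every library. It stood at 28893 and 23506 CPM in cKO, against 16289.9 and 13486 CPM in wild type, a log2 fold change of 0.82 (SE 0.254, adjusted p = 0.0304). mt-Co2, which holds the entry site for electrons, was at 8452 and 6665 CPM in cKO, against 5231 and 3999 CPM in wild type. The fitted log2 fold change of 0.71 had the highest adjusted p of the 13, 0.0395, and the call was lost with RLE size factors, without cKO replicate 1 and without wild-type replicate 2. mt-Co3 was at 4758 and 3900 CPM in cKO, against 2583 and 3019 CPM in wild type, and the fitted log2 fold change of 0.63 (SE 0.203) was the smallest of the 13. It was the sole mRNA with more CPM in wild-type replicate 2 than in wild-type replicate 1.

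ATP synthase has 2 mitochondrial subunits of its proton channel part. mt-Atp6 was at 8179 and 6316 CPM in cKO, against 4657 and 4203 CPM in wild type, a log2 fold change of 0.71 (SE 0.220). mt-Atp8 was at 2571 and 2193 CPM in cKO, against 1452 and 1199 CPM in wild type, a log2 fold change of 0.85 (SE 0.190). Reads in the 43 shared bases printed above can belong to either gene.

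The complexes took different shares of the mRNA counts in the groups. Complex I mRNAs made up 35.6% and 35.5% of mitochondrial mRNA counts in cKO, against 32.9% and 28.2% in wild type. Complex IV mRNAs made up 43.4% and 43.5% in cKO, against 45.0% and 48.7% in wild type. ATP synthase mRNAs made up 11.1% and 10.9% in cKO, against 11.4% and 12.8% in wild type. For these 3 complexes the cKO libraries were nearly alike, the groups did not overlap, and wild-type replicate 2 was the library farthest from cKO. The complex III mRNA, mt-Cytb, made up 9.85% and 10.1% in cKO, against 10.7% and 10.3% in wild type, where wild-type replicate 1 was farthest and the cKO libraries differed by more than the gap between the groups. Each exact permutation test gave p = 0.333, the smallest that 2 libraries against 2 allow.

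Both rRNAs changed by less than the spread allowed the test to call. mt-Rnr1 (MT:70-1024), the 12S rRNA of the small mitochondrial ribosomal subunit, stood at 265.4 and 252.7 CPM in cKO, against 268.9 and 225.8 CPM in wild type. These values overlapped, and the fitted log2 fold change was 0.07 (SE 0.148, adjusted p = 0.712), turning to -0.07 without wild-type replicate 2. mt-Rnr2 (MT:1094-2675), the 16S rRNA of the large subunit, stood at 383.8 and 385.8 CPM in cKO, against 344.6 and 280.4 CPM in wild type. The cKO libraries were above both wild-type libraries, but the fitted change of 0.30 on the log2 scale (SE 0.156, adjusted p = 0.137) was not called. It was called higher with library totals alone (0.53, adjusted p = 0.0199) or without wild-type replicate 1 (0.45, adjusted p = 0.0224), and lower on the Sertoli scale (-0.86, adjusted p = 0.00893).

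Set against the mRNAs, rRNA was scarcer in the cKO libraries. For every 100 mitochondrial mRNA counts there were 0.670 and 0.815 rRNA counts in cKO, against 1.14 and 1.20 in wild type. The groups did not overlap, and the ratio of their means was 0.633. The same question was put to single genes by scaling each library to its summed mitochondrial counts and fitting all genes, which makes a change of 0 mean a change equal to that of the mitochondrial pool. On that scale mt-Rnr1 was lower in cKO, with a log2 fold change of -0.79 (SE 0.303, adjusted p = 0.0184), and mt-Rnr2 was at -0.55 (SE 0.299, adjusted p = 0.107). Leaving out cKO replicate 1 (adjusted p = 0.214), cKO replicate 2 (adjusted p = 0.0740) or wild-type replicate 2 (adjusted p = 0.0637) ended the mt-Rnr1 call. No mRNA or tRNA passed on that scale, where the 13 mRNAs ran from -0.27 (mt-Co3) to 0.33 (mt-Nd5). The mRNAs made up 98.8% to 99.3% of the pool, so the scale itself holds them near 0 as a group. Of all genes tested, 4% were higher and 49.9% lower on that scale, 53.9% in all, with a median of -0.89. The labels describe libraries from cleaved mRNA, so the few rRNA counts need not follow the level of rRNA in the tissue.

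**Figure D2:**
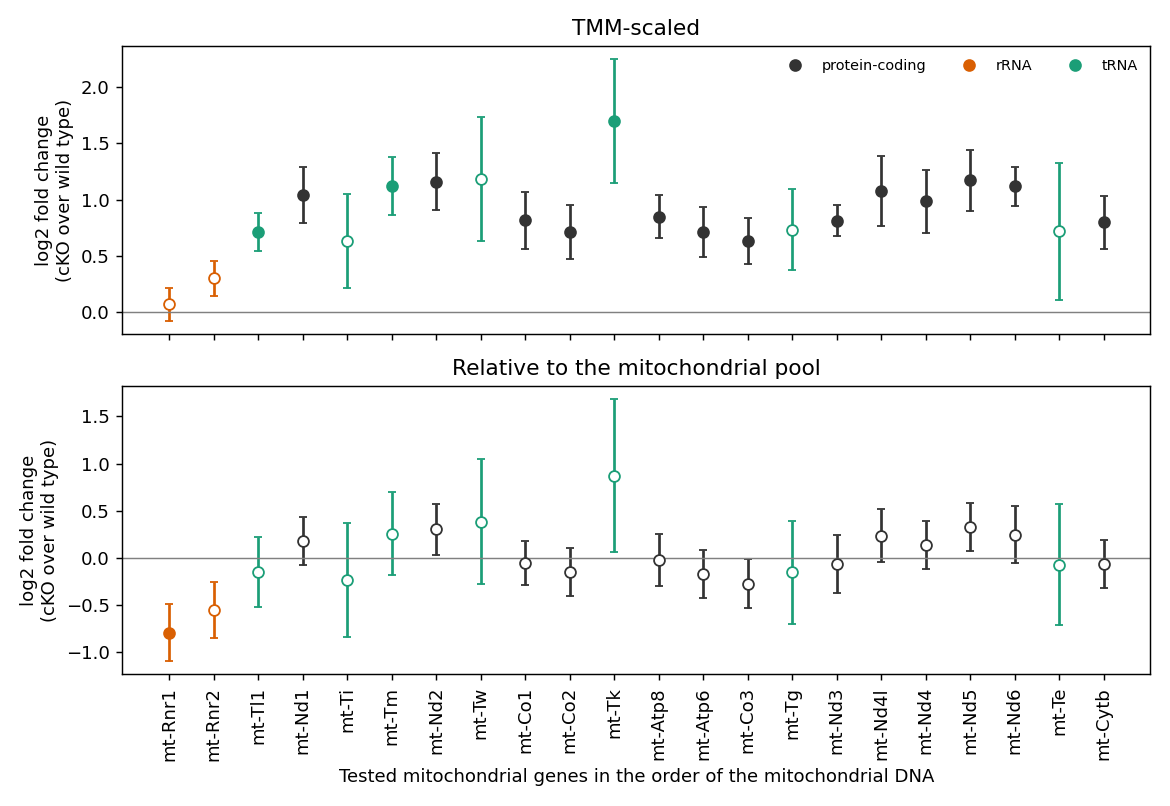
Log2 fold change (cKO over wild type) of the 22 tested mitochondrial genes in their order on the mitochondrial DNA, with bars of 1 SE and filled points for an adjusted p under 0.05. On the TMM scale (upper panel) every point is above 0, while scaled to the Sertoli markers 19 of the 22 are below 0. Relative to the mitochondrial pool (lower panel) mt-Rnr1 is the only filled point.

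Per base of gene length mt-Co1 stood highest and mt-Nd3 lowest among the mRNAs in both groups. In the deposited FPKM values, mt-Co1 was highest at 19527 and 16968 FPKM in cKO, against 9595 and 8214 FPKM in wild type. Next in cKO was mt-Atp8, at 13158 and 11988 FPKM in cKO, against 6476 and 5529 FPKM in wild type, close to mt-Co2 at 12903 and 10867 FPKM against 6959 and 5502 FPKM and mt-Atp6 at 12542 and 10344 FPKM against 6223 and 5808 FPKM. The libraries' values of these 3 genes overlapped within each group, and in wild type mt-Co2 had the highest mean of the 3. At the low end of the mRNAs, mt-Nd6 was at 851.6 and 734.4 FPKM in cKO, against 337.5 and 290.8 FPKM in wild type, and mt-Nd3 at 586.2 and 547.9 FPKM against 279.0 and 275.8 FPKM. The rRNAs were lower still in both groups, with mt-Rnr1 at 290.1 and 295.2 FPKM against 256.2 and 222.5 FPKM and mt-Rnr2 at 253.3 and 272.0 FPKM against 198.2 and 166.8 FPKM in wild type. Of the 20 genes with the highest FPKM, 12 in each cKO library and 11 in each wild-type library were mitochondrial.

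The makeup of the mitochondrial counts set wild-type replicate 2 apart. mt-Co3 took 4.87% and 4.94% of mitochondrial counts in the cKO libraries and 4.76% in wild-type replicate 1, but 7.08% in wild-type replicate 2. mt-Nd4l took 1.99% and 1.91% in cKO and 1.96% in wild-type replicate 1, but 1.35% in wild-type replicate 2. mt-Nd4 showed the same pattern, at 8.92% and 8.73% in cKO and 8.86% in wild-type replicate 1, but 7.21% in wild-type replicate 2. For these 3 genes a difference of the group means in pool share rests on that 1 library.

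**Figure D3:**
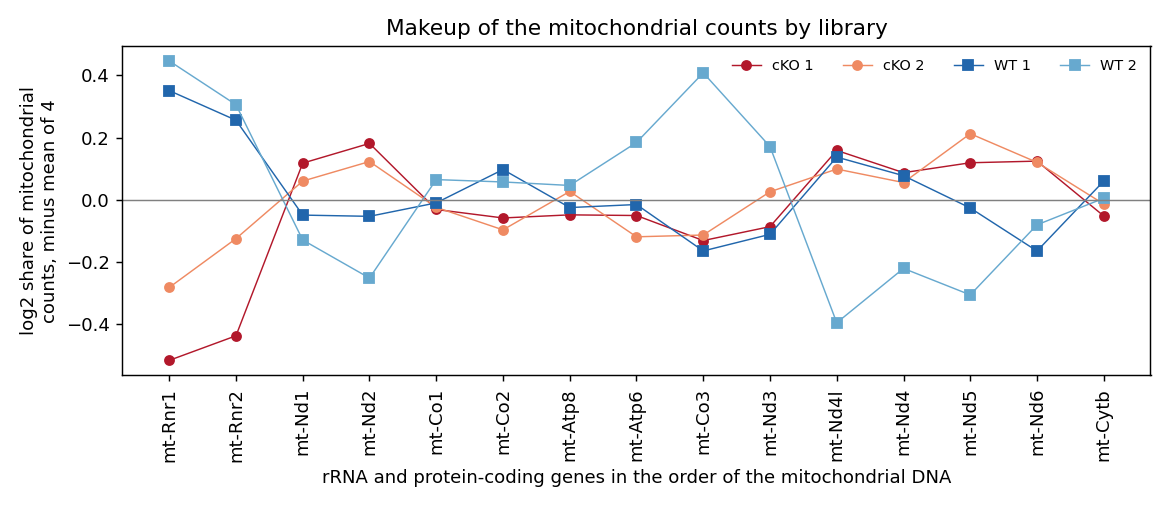
Share of the mitochondrial counts taken by each rRNA and protein-coding gene, as log2 share minus the mean of the 4 libraries, in the order of the mitochondrial DNA; lines join the genes of 1 library. The rRNA genes are low in both cKO libraries, and wild-type replicate 2 (WT 2) departs from the other 3 at mt-Co3 (7.08% of mitochondrial counts) and mt-Nd4l (1.35%).

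The tRNA genes had few counts apart from mt-Tl1 and mt-Tm, which held 87.3% to 89.5% of all tRNA counts in each library. mt-Tl1, the tRNA for leucine codons UUA and UUG, lies between mt-Rnr2 and mt-Nd1, and mt-Tm, the methionine tRNA, lies just before mt-Nd2. Their sequences are shown beside mt-Tl2, the other leucine tRNA, which had only 9 and 11 counts in cKO and 7 and 2 in wild type. Capitals mark the anticodon, written as DNA.
mt-Tl1: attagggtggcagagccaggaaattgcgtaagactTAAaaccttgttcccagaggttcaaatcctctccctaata
mt-Tm: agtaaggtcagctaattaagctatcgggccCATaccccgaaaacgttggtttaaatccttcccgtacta
mt-Tl2: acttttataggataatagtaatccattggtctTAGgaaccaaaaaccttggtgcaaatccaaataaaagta
These genes are 75, 69 and 71 bases long (MT:2676-2750, MT:3845-3913 and MT:11671-11741, all plus strand), so a longer fragment also covers a neighbour, and how such fragments were counted is not given in the sources used here.

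mt-Tl1 had 1061 and 865 counts in cKO and 612 and 479 in wild type. Scaled, this was 24.8 and 23.7 CPM in cKO, against 16.2 and 13.5 CPM in wild type, a log2 fold change of 0.71 (SE 0.168, adjusted p = 0.0112), a call lost without cKO replicate 1. mt-Tm was at 4.35 and 3.86 CPM in cKO, against 2.09 and 1.69 CPM in wild type, a log2 fold change of 1.12 (SE 0.257, adjusted p = 0.00987). Both rose on the TMM scale, and on the Sertoli scale they were at -0.45 and -0.04 with no call. mt-Tk, the lysine tRNA, passed at 1.70 (SE 0.552, adjusted p = 0.0352) with 12 and 13 counts in cKO against 4 and 3 in wild type. Its call was lost under DESeq2, with a replicate block (adjusted p = 0.0954), with no filter on low counts and without any single library. mt-Ti, mt-Tw, mt-Tg and mt-Te were tested and did not pass, with log2 fold changes from 0.63 to 1.19 and at most 40 counts in a library. The 15 untested tRNA genes together had 38 counts in each cKO library, against 24 and 20 in the wild-type libraries.

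The tRNA counts came almost wholly from the plus strand genes. The 14 tRNA genes annotated on the plus strand, where 12 of the 13 mRNA genes also lie, held 1375 and 1122 counts in cKO, against 760 and 596 in wild type. The 8 on the minus strand held 19 and 30 counts in cKO, against 18 and 10 in wild type, of which mt-Te, which adjoins mt-Nd6, gave 14 and 21 in cKO and 15 and 5 in wild type. Without mt-Tl1 and mt-Tm the plus strand genes still held 128 and 116 counts in cKO, against 69 and 57 in wild type.

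Copies of mitochondrial DNA in the nuclear genome also held counts. Matching the table's genes to the 37 mitochondrial transcripts at 95% identity or more over at least 80% of their length found 11 nuclear rows, all annotated as pseudogenes, with 7 in one block on chromosome 1, 3 on chromosome 2 and 1 on chromosome 13. They took 0.952% and 0.835% of library counts in cKO, against 0.464% and 0.413% in wild type. All 11 were higher in cKO on the TMM scale, where 29.2% of all genes tested were higher. Their log2 fold changes ran from 0.67 to 1.15, differing from that of the mitochondrial gene by up to 0.183. Of the 7 copies on chromosome 1, 5 had 0 mismatches to their mitochondrial gene and 2 had 1 mismatch over the aligned bases. These pairs show how little separates a copy from its gene, in windows of 60 aligned bases with differences in capitals: Gm28438 (chromosome 1, from 24612775 to 24613119, GRCm38) beside mt-Nd3, and Gm13340 (chromosome 2, from 22588103 to 22589647) beside mt-Co1.
Gm28438: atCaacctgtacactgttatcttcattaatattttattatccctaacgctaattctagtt
mt-Nd3: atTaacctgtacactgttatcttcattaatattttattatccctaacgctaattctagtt
Gm13340: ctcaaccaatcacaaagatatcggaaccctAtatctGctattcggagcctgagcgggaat
mt-Co1: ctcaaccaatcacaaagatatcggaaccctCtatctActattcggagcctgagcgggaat

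The copies tracked their genes library by library. Gm28437, a copy of mt-Co3, had 25.5% and 26.3% of the counts of mt-Co3 in cKO, against 25.2% and 24.8% in wild type, so the excess of mt-Co3 in wild-type replicate 2 appeared in the copy too. Gm10222, a copy of mt-Nd4l, had 28.6% and 29.4% of its gene's counts in cKO, against 27.5% and 27.4% in wild type. Gm13340, which differs from mt-Co1 at 37 of 1545 bases, had 2.22% and 2.21% of the counts of mt-Co1 in cKO, against 2.14% and 1.97% in wild type. Reads of a copy and of its gene cannot be told apart where the sequences are identical. With the copies' counts added to their genes, mitochondrial RNA took 11.1% and 9.65% of counts in cKO, against 5.40% and 4.42% in wild type, and 16 of 22 genes were again called higher.

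**Figure D4:**
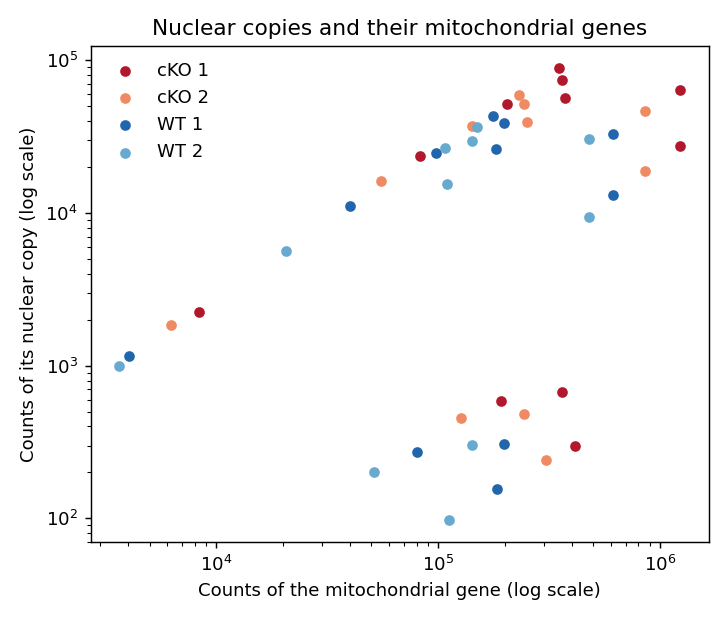
Counts of each of the 11 nuclear copies against those of its mitochondrial gene, 1 point per copy and library, both axes logarithmic, with cKO libraries in reds and wild-type (WT) libraries in blues. Copies rise with their genes across libraries, from 98 counts (Gm4076, a copy of part of mt-Nd5, in wild-type replicate 2) to 88552 counts (Gm10925, a copy of mt-Atp6, in cKO replicate 1).

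The nuclear genes of mitochondrial function did not share the direction of the mitochondrial mRNAs on the TMM scale. Of 78 nuclear-encoded subunits of complexes I, III and IV and ATP synthase, 9 were higher and 45 lower, with a median log2 fold change of -0.63, where 29.2% of all genes tested were higher and 34.3% lower around a median of -0.02. Without cKO replicate 1 the counts were 4 and 36, and without cKO replicate 2 they were 5 and 29. By complex, 2 of 36 complex I subunits were higher and 25 lower, 0 of 9 complex III subunits higher and 7 lower, 5 of 17 complex IV subunits higher and 9 lower, and 2 of 16 ATP synthase subunits higher and 4 lower. Single libraries moved these counts, and leaving out any 1 library also gave fewer calls in each direction over all genes tested. Without cKO replicate 1, 1 complex I, 2 complex IV and 1 ATP synthase subunits were higher. Without cKO replicate 2, 3 complex IV and 0 ATP synthase subunits were higher, and 4 complex III and 1 ATP synthase subunits lower. Without wild-type replicate 1, 1 complex I and 3 complex IV subunits were higher and 9 ATP synthase subunits lower. Without wild-type replicate 2, 1 complex I subunit was higher. These are counts without a test of the lists against each other. With all libraries, 25% of the ATP synthase subunits were lower, below the 34.3% of all genes tested, and 10 of 16 did not pass.

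Among the complex IV subunits, the testis isoforms fell furthest. Cox8c was at 1.35 and 1.94 CPM in cKO, against 291.0 and 298.4 CPM in wild type, Cox6b2 at 3.22 and 3.56 CPM against 115.3 and 126.9 CPM, and Cox7b2 at 2.01 and 1.59 CPM against 52.2 and 65.4 CPM (log2 fold changes -7.49, -5.16 and -5.02). The muscle isoform Cox6a2 rose, at 4.86 and 3.10 CPM in cKO against 0.185 and 1.44 CPM in wild type, an order of libraries that is also that of the skeletal muscle markers. The broadly expressed Cox7b rose by 1.21 (SE 0.225) on the log2 scale. In complex I, Ndufv2 fell (-1.76, SE 0.171) and Ndufb11 rose (0.95, SE 0.195). In complex III, the core subunit genes Uqcrc1 and Uqcrc2 fell (-1.25 and -1.35). On the Sertoli scale 0 of the 78 were higher and 67 lower, where 2.12% of all genes tested were higher and 60.5% lower.

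Summed by complex, nuclear and mitochondrial subunits moved apart. The mitochondrial complex IV mRNAs summed to 42103 and 34070.1 CPM in cKO, against 24103 and 20504 CPM in wild type, while the nuclear complex IV mRNAs summed to 469.0 and 436.8 CPM in cKO, against 1047 and 1189 CPM in wild type. Cox8c, Cox6b2 and Cox7b2 made up 6.59 and 7.10 CPM of the nuclear complex IV sum in cKO and 458.6 and 490.7 CPM in wild type. The ratio of cKO to wild type for that sum was 0.405 with them and 0.693 without them, an alternative chosen after their values were seen. For complex I the mitochondrial sum had a ratio of cKO to wild type of 2.11 and the nuclear sum a ratio of 0.607. For complex III the ratios were 1.74 and 0.507, and for ATP synthase 1.67 and 0.822.

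Genes that copy, read and process mitochondrial DNA were mixed. Of 67 tested, 9 were higher (13.4%) and 27 lower (40.3%), beside 29.2% and 34.3% of all genes tested, with a median of -0.22. Without cKO replicate 1, 5 were higher, and without cKO replicate 2, 17 were lower. In replication, 4 of 13 were higher (30.8%, near the 29.2% of all genes) and 2 lower. Lig3, the mitochondrial DNA ligase that also repairs nuclear DNA, fell (log2 fold change -2.05, SE 0.134), as did Polg, the replicative polymerase (-1.02, SE 0.141). Rrm2b and Dguok, which supply nucleotides, rose (0.84 and 0.81), as did Top1mt, a topoisomerase (0.73). In transcription, 0 of 7 were higher and 4 lower. Polrmt, the mitochondrial RNA polymerase, averaged 28.9 ± 1.73 CPM in cKO and 52.9 ± 10.1 CPM in wild type (SD; log2 fold change -0.87, adjusted p = 0.00624 from edgeR), and Mterf3 and Mterf1a fell (-1.74 and -0.90).

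In rRNA and tRNA processing and modification, 3 of 20 were higher (15%) and 8 lower (40%), beside 29.2% and 34.3% of all genes tested. Without any one of cKO replicate 1, cKO replicate 2 or wild-type replicate 1, 1 was higher. Trmt61b, a methyltransferase for mitochondrial RNA, fell (-1.49, SE 0.280), as did Tfb1m, which methylates the 12S rRNA (-1.22, SE 0.209), and Trnt1, which adds CCA to tRNA ends (-1.16, SE 0.198). Mrm1, a 16S rRNA methyltransferase, rose (0.97, SE 0.162), as did Hsd17b10, a subunit of the enzyme that cuts tRNA 5′ ends (0.65, SE 0.214). In mRNA stability and decay, 1 of 16 was higher and 9 lower, or 0 higher without cKO replicate 1 and 5 lower without cKO replicate 2. Ptcd1 (-1.14), Ptcd2 (-0.99) and Slirp, which binds mitochondrial mRNAs with Lrpprc (-0.97), fell, while Fastkd1 rose (0.62). In translation, 1 of 11 was higher and 4 lower, with 2 lower without cKO replicate 1 and 0 lower without cKO replicate 2. The ribosome recycling factor gene Mrrf (-0.76) and the initiation factor genes Mtif3 and Mtif2 (-0.67 and -0.58) fell, while the release factor gene Mtrf1l rose (1.03). The share lower was 56.25% for mRNA stability and decay. For translation it was 36.4%, near the 34.3% of all genes tested.

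The genes Mtpap, Lrpprc and Tfam were named after their values were seen, for their roles in the steps above. Mtpap, the mitochondrial poly(A) polymerase, was at 25.4 and 23.0 CPM in cKO, against 25.9 and 27.9 CPM in wild type (log2 fold change -0.15, adjusted p = 0.409). Lrpprc, which stabilises mitochondrial mRNAs, was at 135.7 and 122.6 CPM in cKO, against 148.8 and 144.6 CPM in wild type (-0.18, adjusted p = 0.253). Tfam, which packages mitochondrial DNA and starts its transcription, was at 37.2 and 32.2 CPM in cKO, against 22.2 and 24.1 CPM in wild type, and rose by 0.58 (SE 0.157, adjusted p = 0.0181).

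The mitochondrial ribosomal protein genes, whose products assemble with the rRNAs above, had 0 of 78 higher and 39 lower, with a median of -0.51, where 29.2% of all genes tested were higher and 34.3% lower. DESeq2 also called 0 higher, and without either wild-type library 1 was higher. Without cKO replicate 2, 20 were lower. Mrpl39 (-1.94, SE 0.140), Mrpl47 (-1.62) and Mrpl1 (-1.55) fell. In a list of 18 nuclear genes for abundant mitochondrial proteins, 4 were higher (22.2%) and 6 lower (33.3%) around a median of -0.05, close to the shares and the median of -0.02 over all genes. Without cKO replicate 1, 1 was higher, without cKO replicate 2 or wild-type replicate 1, 2 were higher, and without cKO replicate 2, 4 were lower. The outer membrane channel genes went opposite ways there: Vdac1 rose (1.26, SE 0.151) and Vdac2 fell (-1.26, SE 0.134). The import receptor gene Tomm22 fell (-1.85), as did Immt, of the inner membrane (-0.95), and Phb rose (0.76). Of 9 biogenesis regulators, 4 were higher and 0 lower (1 lower without wild-type replicate 1), among them the coactivator genes Ppargc1b and Ppargc1a (1.96 and 1.39) and Nfe2l2 (1.09). The biogenesis list had 44.4% higher but a median of -0.02, that of all genes, and 5 of its 9 genes did not pass. On the Sertoli scale 0 of the mitochondrial ribosomal protein, abundant protein and biogenesis genes were higher, where 2.12% of all genes tested were higher.

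**Figure D5:**
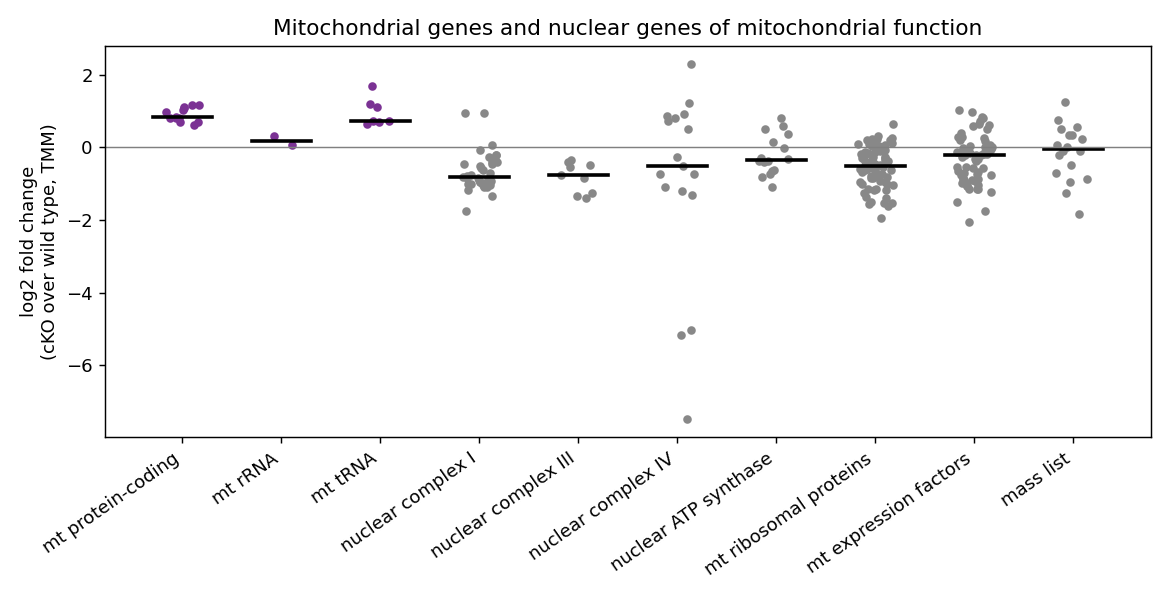
Log2 fold change (cKO over wild type, TMM scale) of the tested mitochondrial genes (purple) and of nuclear gene lists of mitochondrial function (grey), 1 point per gene with a bar at the median. The mitochondrial mRNAs have a median of 0.85, the nuclear subunit lists medians from -0.81 to -0.35, and scaled to the Sertoli markers the mRNA median is -0.32.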

How the data were processed

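Per the submitters' processing notes, reads were aligned with HISAT2 to GRCm38. Its version, the counting program, the strand setting and the treatment of reads with several matches are not stated. The authors deposited raw counts per gene, with no normalization, and FPKM values, which divide the counts by gene length and library total. For the mitochondrial rows the length behind the FPKM was the gene's span. All 37 matched GENCODE M21 by ID and position, which supplied gene class and strand. Sequences are GENCODE M21 transcripts. Counts were filtered with filterByExpr, scaled with TMM factors and tested with edgeR 4.0.16's quasi-likelihood test (R 4.3.3) of genotype (two-sided). Adjusted p-values (Benjamini-Hochberg) cover the 21822 genes that passed the filter, and 0.05 was the threshold. SE is the log2 fold change over the square root of the F statistic. Nuclear copies were found with BLAST 2.17.0. Library totals ran from 32730868 to 41584389 counts; most tRNA genes held too few counts to test. The replicates of each group differed by far more than sampling noise.

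All mitochondrial protein-coding and rRNA genes were named, and tRNA genes if tested or if over 10 counts in any library. From each nuclear list up to 3 changed genes in its main direction and 2 in the other were named. The members and lists were chosen with earlier results of these data known. Alternatives were a replicate block, DESeq2 1.42.0, RLE factors, library totals, scaling to Sertoli markers or to the mitochondrial pool, mitochondrial genes left out of the scaling, 2 other filters and leaving out each library. Adding nuclear copies, a GENCODE protein-coding denominator, leaving out libraries on the pool scale, and a complex IV sum without testis isoforms were chosen after seeing the data. The procedure was tested on simulated data with far fewer changed genes, split evenly between directions. That simulation does not check the scaling when as many genes change as here.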

Additional observations from a re-analysis of the deposited data

How the results depend on the processing

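Deviations of same-numbered libraries correlated at -0.07 across 21822 genes, which does not show whether the libraries were paired. Replicate 1 had the larger mitochondrial share in both groups (10.2% against 8.81% in cKO, 4.93% against 4.01% in wild type). A replicate block called 15 mitochondrial genes higher against 16, and among the members it ended the mt-Tk call alone. Library totals alone moved the median of all genes to 0.20 and the split of calls to 7651 higher and 6423 lower, against 6368 and 7477. Scaled to the Sertoli list, 463 genes were higher and 13193 lower, with 0 and 2 mitochondrial genes, 0 and 61 expression factors, 0 nuclear subunits higher, and 77 ribosomal protein genes lower. Scaled to the mitochondrial pool, 873 genes were higher, with 0 mitochondrial genes higher and 1 lower, 0 expression factors higher and 50 lower, 1 nuclear subunit higher, and 68 ribosomal protein genes lower. With a mean of at least 5 CPM, 4620 genes were lower, fewer being tested. Library totals gave 1 ribosomal protein gene higher and 23 lower, and the 5 CPM filter 1 higher. The cause of the other shifts was not tested.

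On the Sertoli scale 19 members turned below 0: mt-Rnr1 -1.09, mt-Rnr2 -0.86, mt-Tl1 -0.45, mt-Nd1 -0.13, mt-Ti -0.52, mt-Tm -0.042, mt-Nd2 -0.013, mt-Co1 -0.35, mt-Co2 -0.46, mt-Atp8 -0.32, mt-Atp6 -0.45, mt-Co3 -0.53, mt-Tg -0.41, mt-Nd3 -0.35, mt-Nd4l -0.11, mt-Nd4 -0.19, mt-Nd6 -0.049, mt-Te -0.43 and mt-Cytb -0.37. Relative to the pool, 13 did: mt-Rnr1 -0.79, mt-Rnr2 -0.55, mt-Tl1 -0.15, mt-Ti -0.23, mt-Co1 -0.056, mt-Co2 -0.15, mt-Atp8 -0.021, mt-Atp6 -0.17, mt-Co3 -0.27, mt-Tg -0.15, mt-Nd3 -0.066, mt-Te -0.071 and mt-Cytb -0.066.

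Leaving out 1 library gave 7 to 16 mitochondrial genes higher, 5 to 9 expression factors higher and 17 to 28 lower, 4 to 9 nuclear subunits higher and 29 to 55 lower, and 0 to 1 ribosomal protein genes higher and 20 to 46 lower. Over all genes tested, leaving out any 1 library also gave fewer calls in each direction. The log2 fold change of mt-Rnr1 ran from -0.074, without wild-type replicate 2, to 0.19. The ratio of mitochondrial shares ran from 1.93 to 2.37, and stayed within the replicate spread with the 100 most abundant nuclear genes left out (2.08), copies added (2.12) or a protein-coding denominator (2.11). The plan took gene class from the file or the gene symbol, while the shares by class used GENCODE M21 classes. With at most 11 counts in a library, 15 tRNA genes were not tested.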
